A study of Homo sapiens with 6 samples.

Results

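The small nucleolar RNA (snoRNA) and small Cajal body RNA (scaRNA) genes were taken as all genes whose symbol starts with SNORA, SNORD or SCARNA and that had a probe set annotated to exactly 1 gene. They numbered 192 of the 18417 genes measured, namely 115 box C/D genes (SNORD), 61 box H/ACA genes (SNORA) and 16 scaRNA genes (SCARNA). Of these, 5 had several such probe sets and were represented by the one with the highest mean over the 6 arrays. A further 84 genes with these symbols were named only by probe sets of several genes and do not belong to the set.

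The study compared A204 cells, an established human line from a rhabdoid tumour, after 12 h with SAHA (vorinostat), an inhibitor of histone deacetylases, with control cells of the same line. There were 3 arrays per group, hybridised with total RNA on Affymetrix whole-transcript arrays. The treatment protocol gives DMSO for the controls while another label gives no treatment, and the unit of the SAHA dose is incomplete in the labels, so no concentration is given here. No label states that the 3 arrays of each group are separate cultures. The p-values therefore reflect the spread among these 6 arrays, which may be technical, and all values come from 1 cell line.

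Both kinds of snoRNA guide enzymes to other RNAs by base pairing. Box C/D RNAs direct ribose methylation by fibrillarin and box H/ACA RNAs direct pseudouridylation by dyskerin, mostly on ribosomal RNA, while scaRNAs do the same for spliceosomal RNAs in Cajal bodies. Most human snoRNAs lie in introns of other genes, called host genes, and are trimmed from the spliced intron. A probe set for such an RNA reads the same letters in the mature RNA and in the unspliced host transcript, and the arrays do not separate these forms. The lengths in RefSeq ran from 60 to 205 bases for the C/D members, from 123 to 236 for the H/ACA members and from 125 to 421 for the scaRNA members.

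Arrays correlated at 0.9965 to 0.998 within a group and at 0.9728 to 0.9738 between groups, over all probe sets. The mesenchymal marker VIM was at a mean log2 signal of 12.81 in control and 12.63 in SAHA. SMARCB1, whose loss is the typical rhabdoid lesion, read 7.74 and 7.22, which does not by itself show whether the gene is present. The muscle markers MYOD1 (6.49 and 6.37), MYOG (7.34 and 7.46) and DES (7.58 and 8.34) and the epithelial marker CDH1 (9.59 and 9.42) were below VIM in signal. The epithelial marker EPCAM (5.65 and 5.79), the blood marker PTPRC (4.05 and 4.08) and the endothelial marker PECAM1 (5.04 and 5.17) had the weakest signals of these.

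The small RNA genes moved in both directions and more of them fell than rose. A gene was called where limma's adjusted p (Benjamini-Hochberg over all 18417 genes) was under 0.05. Among the 192 members, 35 were higher in SAHA, 59 were lower and 98 were not called. Over all genes 60.0% were called, 31.1% as higher and 28.9% as lower, against 49.0% of the members, so a call by itself is common in this comparison. The 3 SAHA values lay wholly above the control values in 40 members and wholly below in 66, together 55.2% of members, against 65.4% of all genes. A call with a change of at least 2-fold was made for 10 members, 6 higher and 4 lower, against 11.3% of all genes.

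Changes are given as SAHA minus control on the log2 scale. The median change of the members was -0.05, against -0.0027 over all genes, and it was -0.10 without control replicate 3 and -0.03 without control replicate 1. The median size of a change, without its sign, was 0.25 in the members and 0.24 over all genes. The median standard error was larger in the members, at 0.083 against 0.057. The median standard deviation was 0.139 in control and 0.076 in SAHA for the members, and 0.072 and 0.053 over all genes. The signal of the median member was lower, at 7.44 against 8.14.

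The 3 classes are given by their counts, and differences between them were not tested. Of the C/D genes, 26 were higher, 34 lower and 55 not called, with a median change of -0.06. Of the H/ACA genes, 6 were higher, 20 lower and 35 not called, with a median of -0.04. Of the scaRNA genes, 3 were higher, 5 lower and 8 not called, with a median of -0.02. The 10 changes of at least 2-fold were 8 C/D and 2 H/ACA genes. Across 69 C/D genes outside the imprinted clusters described below, 18 were higher and 20 lower.

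The counts in each direction are also given by the signal of the probe set. Signals of different probe sets are not amounts of RNA, so the split is by signal alone. Of 72 members at or above the median signal of all genes, 22 were higher and 12 lower, with a median change of 0.03. Of 120 members below it, 13 were higher and 47 lower, with a median of -0.12. All genes showed the opposite balance, with 3498 higher and 3814 lower of 9209 above the median and 2237 higher and 1500 lower of 9208 below it. In the H/ACA class, 16 of the 20 lower members were below the median, and in the scaRNA class all 3 higher members were above it and all 5 lower members below it. The part that signal has in these calls was not tested.

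**Figure D1:**
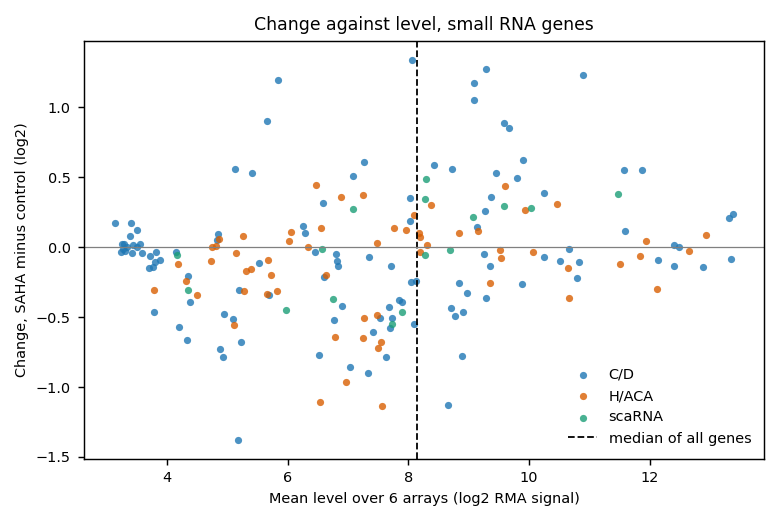
Change of each of the 192 small RNA genes (SAHA minus control, log2) against its mean signal over 6 arrays (log2), coloured by class, with the median signal of all genes as a dashed line. Below the line 47 members were lower and 13 higher, and at or above it 12 were lower and 22 higher.

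The host was taken as the RefSeq gene whose span holds the small RNA, which existed for 190 of the 192 members. The kinds of host are given side by side, with no test between them. All 6 members in the imprinted cluster at 14q32 were higher. Of 40 members in the imprinted cluster at 15q11, 14 were lower and 2 higher. Of 29 members in other noncoding hosts, 13 were higher and 7 lower (median change 0.09). These include SNORA74A and SCARNA16, which lie within SNHG4 and SNHG20 but also within the coding genes MATR3 and SEC14L1, the hosts measured for them. Without these 2 members, 12 of 27 were higher and 7 lower. Of 33 members in ribosomal protein genes, 3 were higher and 15 lower (median -0.24). Of 82 members in other genes, 10 were higher and 23 lower (median -0.03).

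**Figure D2:**
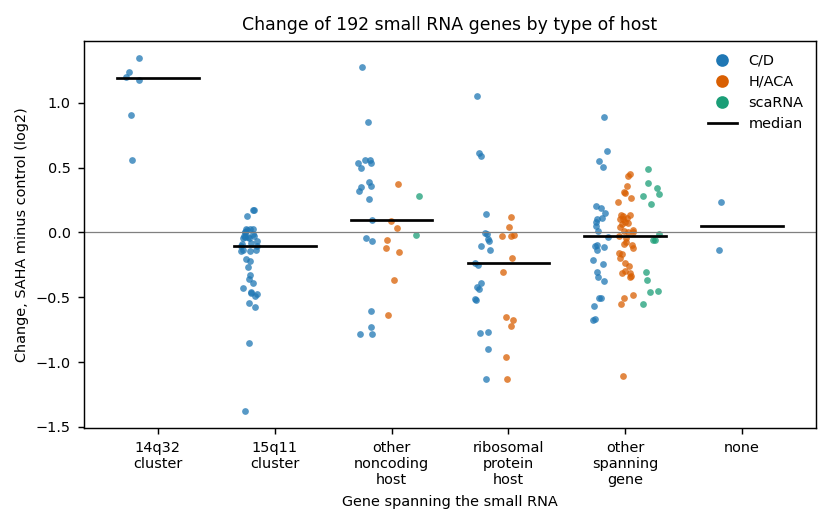
Change of each of the 192 small RNA genes (SAHA minus control, log2), grouped by the kind of gene that spans it and coloured by class, with the median of each group as a bar. The 6 members of the 14q32 cluster lie between 0.56 and 1.34, and the ribosomal protein group has the lowest median.

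Several noncoding host genes exist mainly to carry snoRNAs in their introns, and their spliced RNAs make no known protein. Many of them, like ribosomal protein genes, start transcription at a C followed by a run of pyrimidines, the TOP motif. The listed starts of 7 noncoding hosts described below, and of MEG3, which lies upstream of the snoRNA copies at 14q32 and spans none of them, are shown here so that they can be set beside the values. Each run covers 60 bases before the RefSeq start and 40 from it on, 5′ to 3′ on the transcribed strand, in GRCh38.p14, and capitals mark a C at the start with the pyrimidines that follow it, where there are at least 4. The windows are chr1:173869006-173869105 (minus strand) for GAS5, chr11:62855846-62855945 (minus) for SNHG1, chr6:85678694-85678793 (minus) for SNHG5, chr20:49278582-49278681 (plus) for ZFAS1, chr17:76557704-76557803 (plus) for SNHG16, chr20:38435289-38435388 (minus) for SNHG17, chr14:100826048-100826147 (plus) for MEG3 and chr15:24823548-24823647 (plus) for SNHG14.
GAS5: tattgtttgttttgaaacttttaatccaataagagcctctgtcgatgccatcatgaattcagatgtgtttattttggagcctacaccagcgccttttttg
SNHG1: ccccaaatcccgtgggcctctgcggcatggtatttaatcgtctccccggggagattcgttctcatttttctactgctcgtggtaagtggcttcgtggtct
SNHG5: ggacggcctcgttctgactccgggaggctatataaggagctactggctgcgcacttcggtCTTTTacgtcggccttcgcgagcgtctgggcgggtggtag
ZFAS1: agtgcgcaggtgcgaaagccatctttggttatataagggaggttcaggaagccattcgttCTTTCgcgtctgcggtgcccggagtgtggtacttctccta
SNHG16: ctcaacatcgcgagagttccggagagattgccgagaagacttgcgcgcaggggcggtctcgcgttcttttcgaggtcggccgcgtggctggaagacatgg
SNHG17: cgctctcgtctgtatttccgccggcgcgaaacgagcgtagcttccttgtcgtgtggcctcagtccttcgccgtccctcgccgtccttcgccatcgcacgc
MEG3: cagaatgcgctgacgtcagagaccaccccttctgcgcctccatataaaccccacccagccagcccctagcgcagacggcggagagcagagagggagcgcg
SNHG14: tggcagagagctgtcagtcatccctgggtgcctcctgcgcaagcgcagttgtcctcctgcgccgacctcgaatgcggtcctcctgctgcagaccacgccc

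Such a run at the listed start, read on the transcribed strand only, was present in 29 of 97 genes that span a member and are in the RefSeq promoter table (29.9%), against 1404 of all 27305 genes in it (5.14%). The table lists few starts for a gene (3 for MEG3 and 1 for each of the other 7), and a start without the run says only that these letters are not there. Of 40 members whose spanning gene had the run, 8 were higher and 15 lower. Of 122 members whose spanning gene lacked it, 18 were higher and 34 lower, and of 30 with no start in the table, 9 were higher and 10 lower. Members of hosts with and without the run therefore moved both ways.

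GAS5, a noncoding transcript first described in growth-arrested cells, carries C/D snoRNAs in its introns. Of 7 measured members 6 rose, and the median change over the 7 was 0.53. SNORD75 read 8.86, 8.71 and 8.36 in the control arrays and 9.91, 9.98 and 9.86 in the SAHA arrays. The groups did not overlap, and the change was 1.27 (2.41-fold, SE 0.11, adjusted p = 2.45e-05). SNORD78 read 9.54, 9.44 and 8.76 in control and 10.10, 10.11 and 10.09 in SAHA, with the SAHA arrays close together and control replicate 3 low. Its change was 0.85 (SE 0.18, adjusted p = 0.00364).

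The other called GAS5 members rose by smaller amounts, similar to one another. SNORD74 rose by 0.56, SNORD81 by 0.53, SNORD77 by 0.53 and SNORD44 by 0.49, each with all SAHA values above all control values. An ordinary unmoderated test did not call SNORD81 (adjusted p = 0.0796) or SNORD44 (adjusted p = 0.0869). SNORD79 read 9.40, 9.03 and 8.98 in control and 9.19, 9.59 and 9.40 in SAHA, so its groups overlapped and it was not called (0.26, adjusted p = 0.128). Without control replicate 1 it was called (0.39, adjusted p = 0.0221). GAS5 itself was not analysed here, since no probe set names it alone.

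Members of 3 other noncoding hosts also rose. In SNHG1, SNORD28 rose by 0.39 (adjusted p = 0.00366) and SNORD30 by 0.36 (adjusted p = 0.0215), the latter not called without SAHA replicate 1 (0.33, adjusted p = 0.0653) and smaller without control replicate 3 (0.22, adjusted p = 0.00788). In SNHG5, SNORD50B rose by 0.32 (adjusted p = 0.00324). SNORD50A rose by 0.35 (adjusted p = 0.0308) with overlapping groups, and it lost its call without control replicate 1 (0.38, adjusted p = 0.0574) or 3 (0.23, 0.0616) and without SAHA replicate 1 (0.32, 0.09) or 3 (0.31, 0.0907).

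SNORD12C lies in ZFAS1, the antisense neighbour of ZNFX1. It read 8.53, 8.50 and 8.29 in control and 9.07, 9.00 and 8.93 in SAHA, a rise of 0.56 with no overlap (adjusted p = 0.000239). Its host ZFAS1 read 9.47, 9.43 and 9.33 in control and 9.30, 9.29 and 9.22 in SAHA (-0.14, adjusted p = 0.0447). The call of ZFAS1 was near the threshold. It was lost without control replicate 1 (-0.11, adjusted p = 0.132) or 2 (-0.13, 0.102), without SAHA replicate 1 (-0.16, 0.0718), 2 (-0.15, 0.0776) or 3 (-0.12, 0.149), and with cyclic loess scaling (-0.11, 0.0916), a further quantile normalization (-0.075, 0.237), an ordinary unmoderated test (0.0727) or the replicate block (0.0502).

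Other noncoding hosts carried members that fell. In SNHG16, SNORD1A read 5.15, 5.45 and 5.35 in control and 4.63, 4.44 and 4.53 in SAHA, a change of -0.79 (adjusted p = 6.49e-05). SNORD1B, next to it, changed by -0.73 (adjusted p = 0.000211). Both had low signals and no overlap between groups. SNORD52 in SNHG32 changed by -0.78, SNORA24 in SNHG8 by -0.36 and SNORA13 in EPB41L4A-AS1 by -0.64, and all were called lower. EPB41L4A-AS1 itself changed by -0.84 (adjusted p = 1.36e-05).

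In SNHG17 the host fell further than its members. SNHG17 read 9.45, 9.46 and 9.28 in control and 8.58, 8.48 and 8.43 in SAHA, a change of -0.90 (adjusted p = 5.86e-06). Of its 3 members, SNORA71C changed by -0.12 (adjusted p = 0.0348), while SNORA71A (-0.15, adjusted p = 0.0981) and SNORA71D (0.09, adjusted p = 0.193) were not called. The call of SNORA71C was lost without control replicate 1 (-0.12, 0.0776) or 2 (-0.11, 0.0824) and without SAHA replicate 1 (-0.13, 0.0832), 2 (-0.12, 0.0986) or 3 (-0.13, 0.0849). It was also lost with either other scaling (adjusted p = 0.145 and 0.144) and with the replicate block (0.0881). SNORA71A was called without control replicate 2 (-0.21, 0.0334) and with trend and robust options (0.0468). The SNORA71 genes are similar copies, and their probe sets may read one another's RNA.

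The imprinted cluster at 14q32 holds tandem copies of C/D snoRNAs, SNORD113 and SNORD114, expressed from the maternal chromosome together with the noncoding RNAs MEG3 and MEG8. Most of these snoRNAs have no known target RNA. All 6 measured copies rose, with a median change of 1.19 (range 0.56 to 1.34). SNORD114-26, the largest rise of all members, read 7.44, 7.42 and 7.32 in control and 8.74, 8.81 and 8.66 in SAHA. The change was 1.34 (2.53-fold, SE 0.056, adjusted p = 3.22e-07).

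SNORD114-3 had the strongest signal of the cluster, with 10.43, 10.17 and 10.24 in control and 11.51, 11.58 and 11.46 in SAHA. Its change was 1.23 (SE 0.072, adjusted p = 1.98e-06). SNORD113-4 rose from 8.69, 8.35 and 8.46 to 9.62, 9.76 and 9.65 (change 1.18, adjusted p = 7.32e-06). SNORD114-2 (1.20), SNORD114-6 (0.90) and SNORD113-3 (0.56) had weaker signals and also rose. In all 6 copies every SAHA value was above every control value.

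The neighbouring genes, which were chosen after values were seen, did not all move with the snoRNAs. MEG3, upstream of the cluster, read 7.94, 7.99 and 7.99 in control and 9.32, 9.24 and 9.30 in SAHA, a rise of 1.31 (adjusted p = 1.11e-07). RTL1, a protein-coding gene expressed from the paternal chromosome, changed by -3.24 (adjusted p = 3.94e-08). BEGAIN changed by -1.78 and DLK1, a paternally expressed Notch ligand relative, by -0.27, both called. DIO3 was not called (-0.30, adjusted p = 0.189).

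The same locus encodes a large set of microRNAs, of which 15 were measured. Of these, MIR323B rose (0.52), 2 fell and 12 were not called. The 15 had a median signal of 4.34 and a lowest of 3.31, against 3.13 for the lowest of all genes. Without detection calls it is not known whether the uncalled microRNAs were above background. The 2 that fell were MIR127 (-1.50) and MIR136 (-2.24), which lie opposite RTL1. MEG8, the RNA that spans the snoRNA copies, was not analysed here.

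At 15q11 the SNORD115 and SNORD116 copies lie in introns of the long transcript SNHG14, expressed from the paternal chromosome. Loss of the SNORD116 copies is a central lesion of Prader-Willi syndrome, and SNORD115 is known mainly from neurons. Of 20 SNORD116 copies, 12 fell and 8 were not called. The median change was -0.38, with a range from -1.38 to -0.03. Copies of a family are nearly identical, so each probe set may read several of them, and they are not independent.

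SNORD116-28 had the largest fall of all members, with 6.08, 5.97 and 5.54 in control and 4.35, 4.64 and 4.47 in SAHA. Its change was -1.38 (2.60-fold lower, SE 0.14, adjusted p = 4.9e-05). SNORD116-22 read 7.78, 7.12 and 7.51 in control and 6.65, 6.73 and 6.45 in SAHA (-0.86, adjusted p = 0.00149). For both, every SAHA value was below every control value.

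The SNORD116 probe sets with the strongest signals were not among the called ones. Of 6 copies at a mean of 10 or more, limma called 0, also 0 at an unadjusted p under 0.05, and the median change was -0.12. Without control replicate 2 or without control replicate 3, 1 of the 6 was called, and with trend and robust options 1 was. SNORD116-15, the strongest, read 13.54, 13.38 and 13.26 in control and 13.32, 13.31 and 13.31 in SAHA (-0.08, adjusted p = 0.352). Of 14 copies under 10, 12 fell, with a median change of -0.46. This threshold was chosen after the values were seen.

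The SNORD115 probe sets had weak signals. All 20 copies had means between 3.13 and 4.35, and the lowest of them is also the lowest of all 18417 genes. Of these, 2 were called higher, 2 lower and 16 not called, with a median change of -0.02 and a range from -0.20 to 0.17. No detection call exists for these arrays, so it is not known whether any SNORD115 signal is above background.

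Of 7 neighbours of the 15q11 cluster, PWAR6, a noncoding RNA of the same region, fell most, from 6.65, 6.60 and 6.57 to 4.55, 4.62 and 4.52 (-2.04, adjusted p = 2.05e-08). UBE3A, the gene of Angelman syndrome, to which SNHG14 runs antisense, changed by -0.69 (adjusted p = 3.62e-06). MKRN3, MAGEL2, NDN, NPAP1 and ATP10A were not called. SNHG14 itself was not analysed here.

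**Figure D3:**
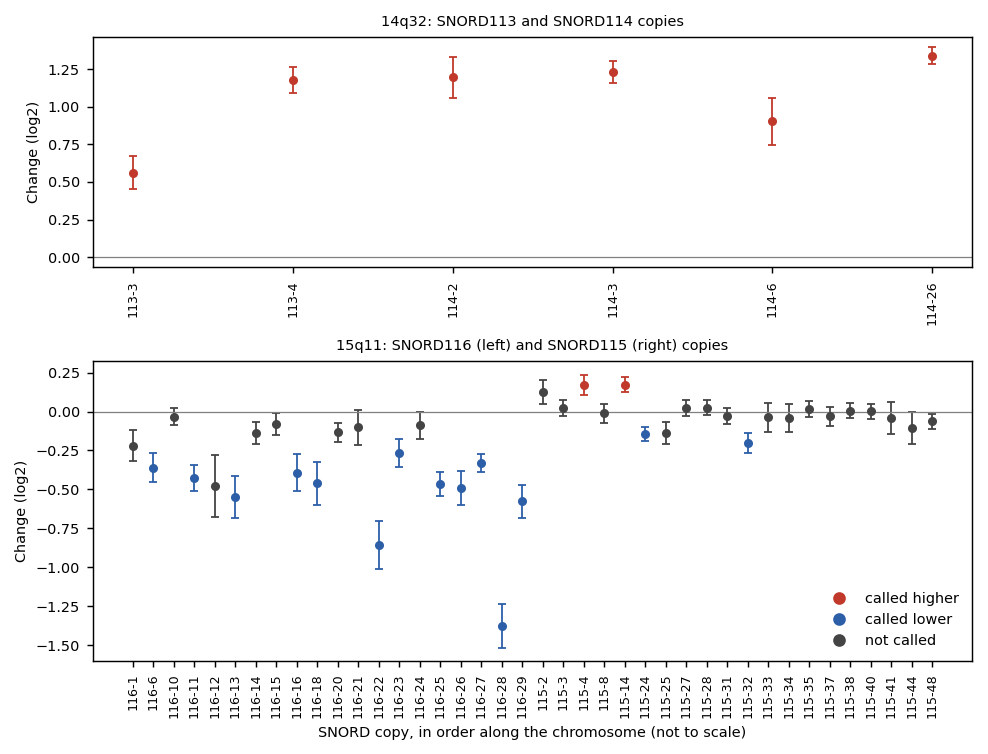
Change (SAHA minus control, log2) with its standard error for each measured copy at 14q32 (top) and 15q11 (bottom), in order along the chromosome and coloured by call. The 6 SNORD113 and SNORD114 copies are all called higher, 12 of 20 SNORD116 copies are called lower and 16 of 20 SNORD115 copies are not called.

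Ribosomal protein genes carry many snoRNAs, so that parts of the ribosome and the guides that modify its RNA share a transcript. RPL3 encodes a protein of the large ribosomal subunit and holds SNORD43, SNORD83A and SNORD83B, and all 3 rose. SNORD43 read 8.58, 8.66 and 8.43 in control and 9.64, 9.52 and 9.68 in SAHA, a change of 1.05 (2.08-fold, SE 0.071, adjusted p = 4.4e-06). SNORD83A rose by 0.61 and SNORD83B by 0.59. RPL3 changed by -0.14 (adjusted p = 0.0166), and its call was lost without SAHA replicate 1 (-0.13, 0.0598) or 2 (-0.14, 0.054) and with cyclic loess scaling (-0.10, 0.0912).

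RPL23A, which encodes another protein of the large subunit, holds SNORD4A, SNORD4B and SNORD42A, and all 3 fell. SNORD4B read 9.30, 9.27 and 9.12 in control and 8.22, 7.89 and 8.19 in SAHA, a change of -1.13 (2.19-fold lower, SE 0.094, adjusted p = 1.49e-05). SNORD42A changed by -0.90 (adjusted p = 0.00127) and SNORD4A by -0.78 (adjusted p = 0.000583). RPL23A was not called (-0.12, adjusted p = 0.0676). It was called lower without control replicate 3 (-0.14, 0.0467), with the mean of its probe sets (-0.15, 0.0232), with trend and robust options (0.00722) and with genes under the median signal left out (0.0289). The members of RPL3 and RPL23A thus went in opposite directions, while the hosts differed between groups by -0.14 and -0.12. The probe set used for RPL23A is numbered far from those of its members. It may read a copy of the gene elsewhere, which was not checked.

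RPL27A held a pair that differed. SNORA3B read 8.20, 8.03 and 8.14 in control and 7.05, 6.94 and 6.99 in SAHA, a change of -1.13 (2.19-fold lower, SE 0.057, adjusted p = 8.31e-07). SNORA3A, from the same transcript, read 12.70, 12.69 and 12.63 in control and 12.68, 12.62 and 12.63 in SAHA (-0.03, adjusted p = 0.593). Its groups overlapped. RPL27A changed by -0.35 (adjusted p = 0.000157). The probe set used for RPL27A is also numbered far from those of its members. It may read a copy of the gene elsewhere, which was not checked.

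RPL13A, which encodes a protein of the large subunit, held 4 members. Of these, SNORD34 fell (-0.44, adjusted p = 0.0219), while SNORD32A (-0.07, but called without control replicate 3 at -0.19, adjusted p = 0.0232), SNORD33 (-0.0015) and SNORD35A (-0.0094) were not called. The call of SNORD34 was lost without control replicate 1 (-0.33, adjusted p = 0.0754) or 2 (-0.37, 0.0778) and without SAHA replicate 2 (-0.38, 0.0746). RPL13A itself was not analysed here.

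Both measured members of RPL21 fell. SNORA27 read 7.57, 7.51 and 7.29 in control and 6.62, 6.31 and 6.55 in SAHA, a change of -0.96 with no overlap (adjusted p = 5.26e-05), and SNORD102 changed by -0.51. Both members of RPSA, which encodes a small subunit protein, fell as well, SNORA6 by 0.72 and SNORA62 by 0.68 on the log2 scale.

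Of 28 genes that span at least 2 members, 24 had a call. In 16 of them at least 2 members were called, and in 13 of these 16 all calls had 1 direction. Members had more lower than higher calls, and few calls in a gene can share a direction without any link. How many would do so was not tested. The 3 with calls both ways were the SNHG14 region and 2 others. In RACK1, which encodes a scaffold protein of the small subunit, SNORD95 rose by 0.63 and SNORD96A changed by -0.37. In KHDC4, SNORA80E rose by 0.30 and SCARNA4 changed by -0.45. These 2 were named after their values were seen.

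A host with its own single-gene probe set existed for 99 members, in 77 hosts. A host with several was represented by the one with the highest mean. Probe set numbers mostly follow genome position here. For some hosts the probe set used is numbered far from those of the members. Among them are RPL5, RPL7A, RPL12, RPL23A, RPL27A, RPS2, EIF1AX and RAP1B. Such a probe set may read a copy of the host elsewhere, which was not checked. Of the 77 hosts 39 were lower, 10 higher and 28 not called, with a median change of -0.14 and a median signal of 10.61. Called hosts made up 63.6%, against 60.0% of all genes and 79.4% of genes at or above the median signal. Lower hosts made up 50.6%, against 28.9% and 41.4%. In 22 pairs member and host were both called in the same direction, 19 of them lower and 3 higher. Members and hosts both had more lower than higher calls. Some pairs would therefore share a direction without any link, and how many was not tested. In 7 pairs the member was higher and the host lower. The count of 7 was 2 without SAHA replicate 1 or without SAHA replicate 2, where RPL3, ZFAS1 or SCARNA12 lost their calls. In 12 pairs the member alone was called, in 35 the host alone, and in 23 neither.

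Across the 99 pairs the changes had a Pearson correlation of 0.27 and a Spearman correlation of 0.27, given as a description since pairs share arrays and members of 1 host share its value. By class, Pearson's r was 0.15 over 35 C/D pairs, 0.36 over 50 H/ACA pairs and 0.50 over 14 scaRNA pairs. Over 63 pairs of microRNA genes and their hosts it was 0.38, with 7 pairs called in the same direction. The hosts of microRNA genes were kept to the same strand where known, while hosts of the members were not filtered by strand. Of 173 microRNA genes 8 were called higher and 23 lower, and their median signal was 4.95. Differences between these correlations were not tested.

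The 7 pairs with a higher member and a lower host were the 3 RPL3 members, SNORD12C in ZFAS1, SNORD14C in HSPA8, SNORA74A in MATR3 and SCARNA12 in PHB2. SNORD14C read 9.39, 9.21 and 8.82 in control and 10.00, 10.08 and 10.01 in SAHA, a change of 0.89 (adjusted p = 0.000402), while HSPA8, a constitutive chaperone gene, changed by -0.22 (adjusted p = 0.00421). MATR3 changed by -0.58, and SNORA74A within its span rose by 0.38. Both genes of these 2 pairs kept their calls in every alternative run that included them. The noncoding gene SNHG4 shares that span and was not analysed here.

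The 3 pairs that rose together were SNORA14A with POR (0.45 and 0.82), SNORA14B with TOMM20 (0.36 and 0.53) and SCARNA6 with ATG16L1 (0.49 and 1.10). In each the host change was larger than that of the small RNA.

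The host had the larger change in size, without sign, in 54 of the 99 pairs, and in 13 of the 35 C/D pairs. Of 27 members whose host fell by 0.5 or more, 13 were lower, 1 was higher and 13 were not called. SNORA75 lies in NCL, which encodes nucleolin. It read 7.19, 7.40 and 6.68 in control and 5.92, 5.99 and 6.03 in SAHA, a change of -1.11 (2.16-fold lower, adjusted p = 0.000436), and NCL changed by -0.66. Also in NCL, SNORD20 changed by -0.57 (adjusted p = 0.0326) at a signal under 5, with overlapping groups. SNORD82, in the same host, was not called (-0.14, adjusted p = 0.365). SNORD41 in TNPO2 was not called (0.01) with a host change of -0.77.

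**Figure D4:**
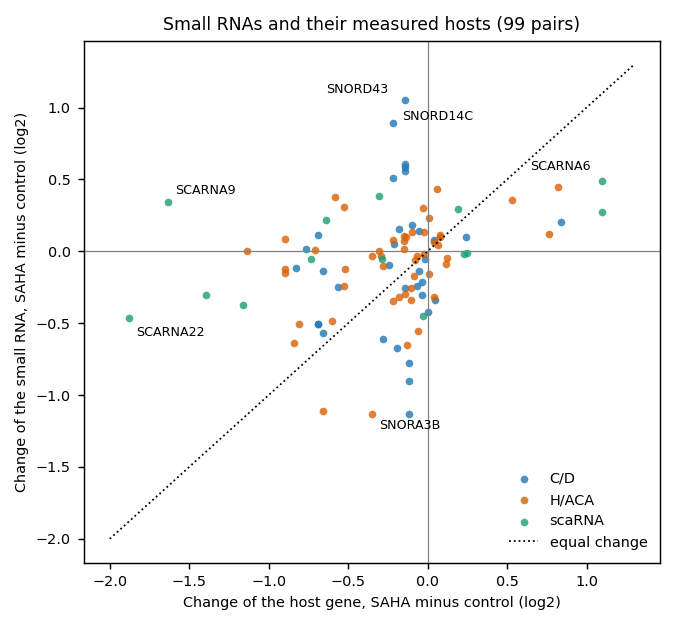
Change of each small RNA (vertical) against the change of its measured host (horizontal), both SAHA minus control on the log2 scale, for 99 pairs coloured by class, with the line of equal change dotted. The Pearson correlation is 0.27, and 7 pairs have a called higher member with a called lower host.

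Among the scaRNAs, which guide modification of spliceosomal RNAs, SCARNA6, SCARNA12 and SCARNA17 rose and SCARNA1, SCARNA4, SCARNA8, SCARNA22 and SCARNA23 fell. Of 16 genes 8 were called, and 5 were without SAHA replicate 1. SCARNA22, in NSD2, a histone methyltransferase gene, read 8.24, 7.92 and 8.23 in control and 7.68, 7.72 and 7.61 in SAHA (-0.46, adjusted p = 0.00206). NSD2 read 9.37, 9.49 and 9.32 in control and 7.46, 7.50 and 7.59 in SAHA, a change of -1.88 (adjusted p = 8e-08). The host change was the larger on the log2 scale.

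SCARNA8 changed by -0.37 and its host HAUS6, an augmin subunit gene, by -1.16. SCARNA23 changed by -0.30 at a signal under 5, and its host POLA1, which encodes the catalytic subunit of DNA polymerase alpha, by -1.39. SCARNA9 was not called (0.35, adjusted p = 0.061). It was called without control replicate 1 (0.50, 0.00354), with quantile normalization (0.0476) or loess scaling (0.044), and with genes under the median signal left out (0.0362). Its host CEP295, a centriole gene, changed by -1.63. SCARNA5, in ATG16L1 with SCARNA6, was not called (0.28, adjusted p = 0.0998). It was called with the replicate block (0.00556) and, just under the threshold, without SAHA replicate 3 (0.37, 0.05). Without control replicate 3 its change was 0.14 (0.268).

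SCARNA1 read 7.79, 7.85 and 8.40 in control and 7.50, 7.47 and 7.42 in SAHA, so that control replicate 3 stood highest (-0.55, adjusted p = 0.0106). Without that array the change was -0.36 (adjusted p = 0.000582), and the ordinary unmoderated test did not call it (adjusted p = 0.0776). The calls of 3 other scaRNAs were lost when some single arrays were left out. SCARNA12 (0.38, adjusted p = 0.0267) was not called without control replicate 2 (0.36, 0.0782) or 3 (0.27, 0.0763) or without SAHA replicate 1 (0.39, 0.0612) or 2 (0.31, 0.0904). SCARNA17 (0.28, adjusted p = 0.0146) was not called without SAHA replicate 1 (0.25, 0.0532). SCARNA4 (-0.45, adjusted p = 0.0347) was not called without control replicate 1 (-0.48, 0.0654) or without SAHA replicate 1 (-0.44, 0.0823), 2 (-0.49, 0.0585) or 3 (-0.43, 0.0861), and was smaller without control replicate 3 (-0.26, 0.0333).

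Some snoRNAs are needed for processing of ribosomal RNA rather than as guides alone, and 4 of 17 on a list of these were members. SNORD14C rose, as above, and SNORD14E, from the same host, was not called (0.51, adjusted p = 0.133), with control replicate 3 at 6.16 against 7.15 and 7.19. Without that array the change was 0.17 (adjusted p = 0.26). SNORD13, which assists acetylation of the small subunit RNA and is transcribed from its own promoter, read 13.41, 13.29 and 13.11 in control and 13.46, 13.53 and 13.53 in SAHA. It rose by 0.24 (adjusted p = 0.0249), and lost its call without control replicate 2 (0.25, 0.0526) or SAHA replicate 2 (0.23, 0.0706) or 3 (0.23, 0.071). SNORA62 fell, as above.

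Certain snoRNAs serve as reference genes in microRNA assays, where a stable level between groups is assumed, and 9 of 15 on a list of these were members. Of these 9, 4 rose, 4 fell and 1 was not called. SNORD43 (1.05), SNORD95 (0.63), SNORD44 (0.49) and SNORA74A (0.38) rose. SNORD61 (-0.67, at a signal under 5), SNORD49A (-0.61), SNORD38B (-0.52) and SNORD96A (-0.37) fell. SNORD7 read 4.66, 4.85 and 4.88 in control and 4.85, 4.81 and 5.02 in SAHA (0.09, adjusted p = 0.353). In all 8 called genes the groups did not overlap. Over all genes 60.0% were called, and in 65.4% the groups did not overlap. Also on the list, SNORD47, SNORD24, SNORD68 and SNORD72 were named only by probe sets of several genes. In a fit over all probe sets these were not called (0.29, 0.45, 0.22 and -0.26, adjusted p = 0.077, 0.214, 0.486 and 0.0964).

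**Figure D5:**
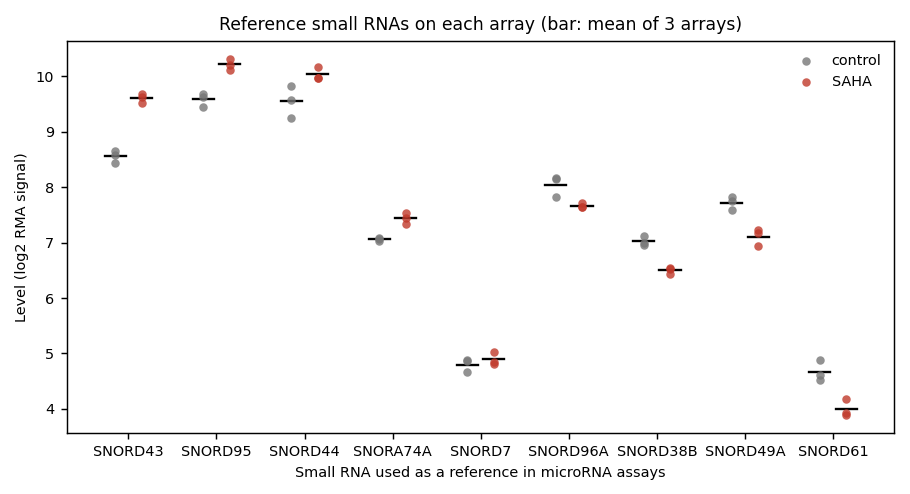
Log2 signal of 9 snoRNAs used as references in microRNA assays on each of 3 control and 3 SAHA arrays, with the mean of each group as a bar. SAHA arrays lie above control in SNORD43, SNORD95, SNORD44 and SNORA74A, below in SNORD96A, SNORD38B, SNORD49A and SNORD61, and overlap in SNORD7.

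Genes for the proteins that bind, assemble or trim these RNAs were taken from a list of 30, of which 27 were measured, with 9 higher, 11 lower and 7 not called (median change -0.10). Their median signal was 10.52. The called share was 74.1%, against 60.0% of all genes and 79.4% of genes at or above the median signal. Of the core box C/D proteins, the methyltransferase FBL was not called (0.01, adjusted p = 0.799) and NOP58 changed by -0.56 (adjusted p = 1.13e-05). Of the core box H/ACA proteins, the pseudouridine synthase DKC1 read 10.25, 10.30 and 10.26 in control and 9.26, 9.19 and 9.28 in SAHA, a change of -1.03 (adjusted p = 3.75e-07). NHP2 (-0.31) and GAR1 (-0.32) were also lower, while NOP10 was higher (0.45). NOP56 and SNU13 were not analysed here.

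Among assembly factors, NAF1 of the H/ACA particle changed by -0.40, and RUVBL1 (0.23), RUVBL2 (0.64), PIH1D1 (0.38) and RPAP3 (0.18) of the R2TP complex rose. COIL, the scaffold protein of Cajal bodies, changed by -1.33 (2.52-fold lower, adjusted p = 1.6e-07), and WRAP53, which brings scaRNAs to Cajal bodies, rose by 0.45. Of the enzymes that free and trim intronic RNA, EXOSC10 of the nuclear exosome changed by -1.19, the debranching enzyme DBR1 by -0.48 and the exonuclease XRN2 by -0.42, and the poly(A) polymerase TENT4B rose by 0.61. The remaining called genes of the list were NOPCHAP1 (-0.39), NOLC1 (-0.18), RRP9 (0.29) and AQR (0.11). Apart from FBL, those not called were PARN (-0.07), TGS1 (-0.13), SHQ1 (-0.10), NUFIP1 (0.05), ZNHIT3 (-0.10) and ZNHIT6 (-0.07).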

How the data were processed

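The deposited value of each of 33252 probe sets is a signal intensity on a linear scale, summarised with RMA, per the submitters' processing notes; software version and array annotation build: not given in the sources used here. Log2 was taken before every step. Probe sets naming 1 gene (19460) were kept, those naming several (1754) or none (12038) were not; symbols were updated through Entrez identifiers (19429 matched in RefSeq for GRCh38.p14, 31 kept the older symbol). RMA gives all arrays nearly the same distribution, so these values cannot show whether the total RNA of a cell changed, and no detection calls were used. All 18417 genes were fitted with limma 3.58.1 in R 4.3.3 (lmFit, eBayes, no covariates, two-sided), and every adjusted p is from Benjamini-Hochberg adjustment over all of them.

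Hosts are RefSeq genes whose span holds the whole member, the shortest measured one where several do. The RefSeq gene table used here gives no strand, so hosts of the members were not filtered by strand, and a host may lie on the opposite strand. Hosts of microRNA genes were kept to the strand of the microRNA where the strands were known. Sequences are from RefSeq's promoter table of GRCh38.p14. Replicate numbers did not pair the samples. The alternatives were a further quantile normalization, cyclic loess scaling, centring, filters on dim genes (under 5 or under the median), probe sets averaged per gene, other moderation, the replicate block and each array left out.

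Members and lists were chosen with earlier results of these data known. Named genes are the 8 largest rises and 8 largest falls among called members without overlap, every called scaRNA, the processing and reference lists, hosts of these, the 5 hosts with the most members, of which 1 is not reported here, and the core proteins. Other genes, among them the neighbours in the imprinted clusters and further pairs and hosts, were named after values were seen.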

Additional observations from a re-analysis of the deposited data

Results flagged for a closer look

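Among 76 probe sets that name a member together with other genes, 63 had distinct values, and a fit over all probe sets called 11 of these higher, 20 lower and 32 not. They lie outside the main measurement, in which 60.0% of all genes and 49.0% of the members were called. The 3 largest rises were a probe set of the SNORD3 (U3) family, SNORD3A, SNORD3B-1, SNORD3B-2, SNORD3C and SNORD3D (0.548, adjusted p = 0.00159), one naming SNORD76 and GAS5 (0.543, adjusted p = 0.00437) and one naming SNHG1 and SNORD31 (0.524, adjusted p = 0.0115). In each, all SAHA values were above all control values. These were picked as a signal in data that the comparisons do not use, and which of the named genes gave the signal was not tested. Other probe sets naming GAS5, with SNORD47 (0.29, adjusted p = 0.077) or SNORD80 (0.35, 0.198), were not called. Of the others naming SNHG1, the one with SNORD26 was called higher (0.40, 0.00815). Those with SNORD22 (0.21, 0.103), SNORD25 (0.14, 0.204), SNORD27 (0.32, 0.18) and SNORD29 (0.05, 0.779) were not called.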

How the results depend on the processing

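With genes under the median signal left out, the counts fell: lower members from 59 to 13 (higher from 35 to 26), called C/D genes from 60 to 26, called H/ACA genes from 26 to 7, called imprinted copies from 22 to 7, higher SNORD113 and SNORD114 copies from 6 to 2, lower SNORD116 copies from 12 to 5, called reference snoRNAs from 8 to 3 and pairs called in the same direction from 22 to 7. The median change of the members became 0.03017. This setting removes 120 members, so fewer were tested. An ordinary unmoderated test called 4 scaRNA genes in place of 8 and 7 SNORD116 copies in place of 12; the cause was not tested. With 1 array left out, higher members ranged from 28 to 38, lower members from 50 to 68, called scaRNA genes from 5 to 10 and the median change from -0.0981 to -0.0259.

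Among 76 named members under 15 alternatives, 1030 of 1097 values kept direction and side of the threshold, 44 lost and 11 gained a call, and 13 of 61 called members lost their call at least once. None of these 61 changed sign in these runs. Sign changed in 5 uncalled members: SNORA3A (0.00944 after loess), SNORD32A (from -0.191 to 0.0185 with 1 array left out), SNORD33 (0.0225 after quantile normalization, 0.0371 after loess, -0.0577 to 0.0933 with 1 array left out), SNORD35A (0.0368 after quantile normalization, 0.0268 after loess, -0.0415 to 0.0339 with 1 array left out) and SNORD41 (-0.0728 to 0.0806 with 1 array left out); the cause was not tested. Same-numbered arrays did not deviate together (correlations -0.0304, -0.1669 and -0.0042), so the numbers give no pairing, and with the replicate block 39 members were higher and 61 lower. The number of arrays limits the precision, and dim probe sets had no detection call.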

Other observations

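Of the probe sets that name a member with its host or with a like copy, those of TAF1D, which encodes a subunit of an RNA polymerase I factor, had lower signals in SAHA for SNORA1 (-0.40), SNORA8 (-0.30), SNORD5 (-0.52), SNORD6 (-0.32) and SNORA40 (-0.96 and -0.62 for its 2 probe sets). At 15q11, the probe set naming SNORD64 and PWAR5 changed by -2.07 (adjusted p = 1.45e-05) and the one naming SNORD109A and SNORD109B by -1.11 (adjusted p = 0.000223). Those naming SNORA56 and DKC1 (-0.55) and SNORD56 and NOP56 (-0.54) were lower as well, and DKC1 and NOP56 encode core proteins of the 2 classes of particle. SNORA48 with EIF4A1 (0.39) and SNORA4 with EIF4A2 (0.40), both in translation initiation factor genes, were higher. These probe sets were chosen after their values were seen, and the values can come from any of the genes named.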
